A study of Homo sapiens with 18 samples.

Results

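The S100 calcium-binding proteins are small EF-hand proteins of vertebrates, and 8 of their genes were described here in THP-1 cells: S100A4, S100A6, S100A8, S100A9, S100A10, S100A11, S100A12 and S100A13. The members were the rows of the count table whose Ensembl identifier carries one of these symbols, 8 of 63677 genes in the table, and all 8 had counts in at least 1 library. Of these, 7 passed the low-count filter and entered the tests over 16678 genes, and S100A12 did not. The family was selected on earlier results of these data: the values that chose it were the S100A4 counts in SCR against WT cells without stimulation, in which S100A4 was among the leading lower genes. Values of all members in that comparison, and S100A4 values that rest on the same unstimulated WT or SCR libraries, are therefore given without a test.

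THP-1 is an established human monocyte-like line derived from an acute monocytic leukaemia. The cells had been transfected with siRNA against TRAFD1 at 25 nM (KD), with a non-targeting siRNA (SCR) or with the reagent alone (WT). From 72 h after transfection they were kept for 4 h in medium or in LPS at 10 ng/ml and then harvested. Each of the 6 groups held 3 libraries of 3′ tag counts, 18 in all. One label calls the WT cells untreated while the treatment protocol gives them transfection mix without siRNA, so that an effect of the siRNA and an effect of the reagent cannot be told apart in comparisons with WT. The knockdown was transient and in 1 cell line, and the labels do not say whether the 3 libraries of a group came from separate passages, so the p-values measure the spread between these libraries.

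Total counts ranged from 8206023 to 22344279 per library. TRAFD1, the siRNA target, had a mean of 8.67 CPM (a count scaled to the library total) in unstimulated KD cells against 23.7 CPM in SCR and 20.6 CPM in WT, a log2 fold change of -1.45 against SCR (edgeR adjusted p = 0.0277). With LPS the target stood at 14.5 CPM in KD, 22.7 CPM in SCR and 17.0 CPM in WT, and the difference from SCR did not pass (log2 fold change -0.65, edgeR adjusted p = 0.262). The change of the KD-to-SCR difference with LPS, 0.80 ± 0.32 (log2 ± SE), did not pass either (edgeR adjusted p = 0.612). All 12 monocytic markers were detected, with summed levels of 3520 to 5420 CPM. ITGB2 made up most of this sum, at group means of 2588 to 3766 CPM, while CD14 had group means of 9.69 to 35.5 CPM. All 4 T cell markers stayed under 1 CPM in every library, as did all 4 erythroid and platelet markers, 3 of which had no count. Of 4 neutrophil markers, 2 stayed under 1 CPM and CSF3R, a receptor shared by myeloid cells, made up most of a sum of 35.5 to 65.9 CPM. The remaining neutrophil marker, CXCR2, was detected, with group means of 3.02 CPM (SCR with LPS) to 7.78 CPM (unstimulated WT). Sums of 1.74 to 4.28 CPM for 3 B cell markers and 0.126 to 3.16 CPM for 4 epithelial markers were near the floor of detection. In bulk RNA, fewer cells of a type and less RNA per cell cannot be told apart.

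S100 proteins bind calcium through paired EF-hands, open a hydrophobic face and then dock onto target proteins. S100A8 and S100A9 form calprotectin, an abundant complex of neutrophils and blood monocytes that sequesters zinc and manganese and, once released, signals as an alarmin through TLR4 and the receptor AGER. S100A12 is a related alarmin of granulocytes and monocytes. S100A10 is the exception that does not respond to calcium: it is held in an open form and joins annexin A2 in a tetramer at the plasma membrane. S100A11 pairs with annexin A1, S100A4 binds non-muscle myosin and is known for its part in cell motility, S100A6 binds CACYBP, and S100A13 takes part in the non-classical export of FGF1 and IL1A.

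All 8 genes lie on the long arm of chromosome 1 (GRCh37). S100A10 (ENSG00000197747, 151955391 to 151966335) and S100A11 (ENSG00000163191, 152004982 to 152020383) come first. Further along stand the calprotectin genes with S100A12 between them, S100A9 (ENSG00000163220, 153330330 to 153333499), S100A12 (ENSG00000163221, 153346187 to 153348097) and S100A8 (ENSG00000143546, 153362508 to 153363549). They are followed by S100A6 (ENSG00000197956, 153507075 to 153508720), S100A4 (ENSG00000196154, 153516089 to 153522612) and S100A13 (ENSG00000189171, 153591263 to 153603836). S100A9 is read from the plus strand and the other 7 from the minus strand. S100A13 exons overlap 235 bases of exons of S100A1 on the other strand, with 0 bases in the last 500 bases of S100A13, the end of the gene from which counts were taken. For S100A6, 6 bases of that end overlap an antisense lncRNA.

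The start regions of these genes differ in their motifs. The 120 bases before the transcription start are shown for the members whose levels moved or were rarest, from RefSeq on GRCh38.p14, with TATAAA and GGGCGG (a GC box, the site of SP1-type factors) in capitals. All 8 members were matched in the RefSeq table.
S100A4 (chr1:153545807-153545926, minus strand): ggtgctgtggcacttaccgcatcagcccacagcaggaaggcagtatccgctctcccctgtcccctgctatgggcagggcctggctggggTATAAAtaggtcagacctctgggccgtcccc
S100A8 (chr1:153391074-153391193, minus strand): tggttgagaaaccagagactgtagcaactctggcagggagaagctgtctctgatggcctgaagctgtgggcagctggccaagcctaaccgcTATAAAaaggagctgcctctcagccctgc
S100A9 (chr1:153357734-153357853, plus strand): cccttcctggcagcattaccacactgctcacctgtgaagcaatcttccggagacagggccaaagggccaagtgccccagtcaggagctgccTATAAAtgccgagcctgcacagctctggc
S100A12 (chr1:153375622-153375741, minus strand): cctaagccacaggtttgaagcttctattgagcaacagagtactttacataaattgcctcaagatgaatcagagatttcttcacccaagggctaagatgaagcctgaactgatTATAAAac
S100A10 (chr1:151993860-151993979, minus strand): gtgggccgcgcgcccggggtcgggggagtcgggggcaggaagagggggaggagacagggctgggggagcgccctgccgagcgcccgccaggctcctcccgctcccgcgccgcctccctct
S100A11 (chr1:152037005-152037124, minus strand): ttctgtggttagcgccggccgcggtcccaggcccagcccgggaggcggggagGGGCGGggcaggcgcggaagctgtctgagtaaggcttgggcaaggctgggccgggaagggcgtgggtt
TATAAA stood in 5 of the 8 windows, those of S100A4, S100A8, S100A9, S100A12 and S100A13, against 5.6% of 35114 windows of the same length from all genes (both strands searched). In S100A8, S100A9 and S100A13 it began 29 bases before the start, in S100A4 31 bases and in S100A12 only 8 bases. GGGCGG stood in the windows of S100A6 and S100A11, 2 of 8, against 34.0% of all windows, and S100A10 had neither motif at a GC content of 80.8%. S100A12 had the lowest GC content, 39.2%, where the median of all windows was 60.0%. The C/EBP-type string TTNNGNAA was found in 4 of 8 windows (S100A6, S100A8, S100A11 and S100A12) against 15.9% of all, and an NF-kB-type string (GGG and CC parted by any 5 bases) in 4 of 8 (S100A4, S100A6, S100A10 and S100A11) against 38.1%. These are matches of letters and say nothing of binding in these cells.

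By counted tags, THP-1 cells held much S100A4 and S100A6, intermediate S100A11 and S100A10 and little calprotectin. Because each transcript gives tags at its 3′ end only, CPM does not scale with transcript length. Tags were counted only over the annotated end of each gene, and the share of a gene's tags that fell there was not tested. The order of genes given here is therefore one of counted tags, and may differ from that of transcripts. S100A6 ranged from 459 to 761 CPM over the 18 libraries, S100A4 from 438 to 1163 CPM, S100A11 from 166 to 357 CPM and S100A10 from 31.0 to 72.6 CPM. S100A13 followed at 7.51 to 14.8 CPM, S100A9 at 3.83 to 10.5 CPM and S100A8 at 0.73 to 5.01 CPM, the last on 8 to 62 counts a library. S100A12 reached 0.70 CPM at most and was at 0 in 11 of 18 libraries. Over the group means, the range on the log2 scale was widest for S100A8 (1.73), then S100A4 (1.01), S100A10 (0.89), S100A11 (0.75), S100A9 (0.63), S100A13 (0.52) and S100A6 (0.39). The order of S100A4 and S100A6 depended on the group: S100A4 was above S100A6 in all 6 WT libraries and below it in all 12 libraries with an siRNA, as the ratios further on show. S100A9 and S100A13 ranges overlapped within LPS groups, so that their order there was not resolved.

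**Figure D1:**
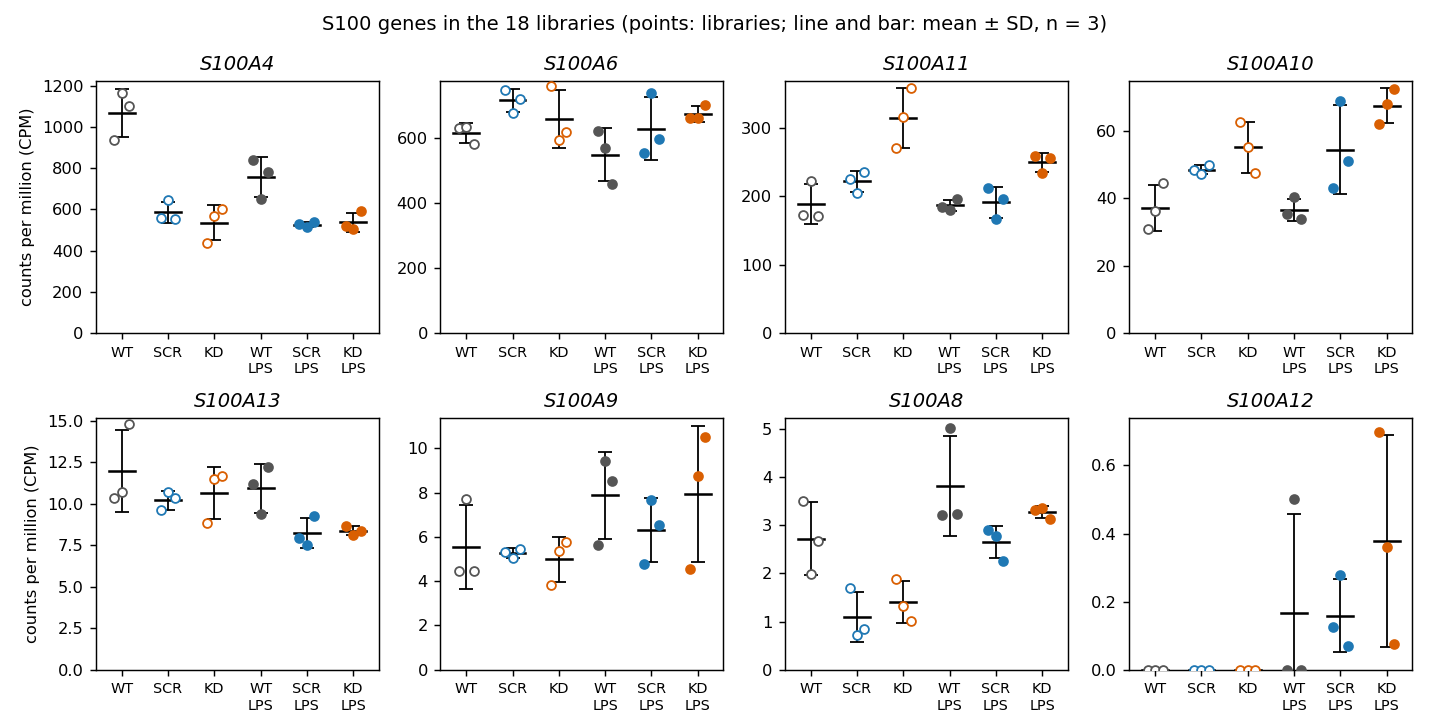
Levels of the 8 S100 genes in CPM (vertical axes, linear from 0, a separate scale for each gene) by group; open points are unstimulated and filled points LPS libraries, and the line and bar give the mean ± SD of 3. S100A4 stands highest in the 3 unstimulated WT libraries, S100A11 in the 3 unstimulated KD libraries, and S100A12 has counts in LPS libraries only.

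S100A4, the motility-linked member, showed the pattern that led to the family being proposed. The 3 unstimulated WT libraries held 935, 1163 and 1104 CPM, the SCR libraries 559, 646 and 554 CPM, and the KD libraries 438, 566 and 600 CPM. Every library with an siRNA, targeting or not, lay below every WT library, and the SCR and KD libraries overlapped. The log2 fold change was -0.86 for SCR against WT (0.55-fold) and -1.0 for KD against WT (0.50-fold), both described without a test and both on the same WT libraries. KD against SCR was -0.13 on the log2 scale, also without a test since the SCR libraries took part in the choice.

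With LPS, in libraries that the choice of the family did not use, the WT libraries held 839, 650 and 780 CPM of S100A4, the SCR libraries 528, 515 and 537 CPM, and the KD libraries 518, 506 and 590 CPM. The WT libraries again lay above all 6 libraries with an siRNA. KD lay below WT, with -0.49 ± 0.11 (log2 ± SE; edgeR adjusted p = 0.0111). That call was lost in 3 of 6 fits with a library left out: the adjusted p was 0.0601 without WT replicate 4, 0.0649 without WT replicate 6 and 0.0648 without KD replicate 5. SCR against WT was of the same size, -0.52 ± 0.12 (SE), but did not pass (edgeR adjusted p = 0.0738). It passed in 4 of 5 other analyses, among them the fit that paired replicates by number (edgeR adjusted p = 0.00827). With a library left out it passed in 0 of 6 fits (edgeR adjusted p 0.0601 to 0.332). KD and SCR lay at 538 ± 45.3 and 527 ± 11.4 CPM (mean ± SD, n = 3), a log2 difference of 0.03 (95% interval -0.21 to 0.27, edgeR adjusted p = 0.943).

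S100A10, the annexin A2 partner, moved in the other direction. Unstimulated, the WT libraries held 31.0, 36.1 and 44.6 CPM, the SCR libraries 48.5, 47.1 and 50.0 CPM, and the KD libraries 62.6, 55.3 and 47.7 CPM. All 6 libraries with an siRNA exceeded the 3 WT libraries. KD rose against WT by 0.57 ± 0.15 (log2 ± SE; edgeR adjusted p = 0.0195), a call lost without WT replicate 1 (0.104), WT replicate 2 (0.0505) or KD replicate 1 (0.0676), and with the 2 groups fitted alone (0.0946). With LPS, WT held 35.4, 40.3 and 33.9 CPM, SCR 43.1, 69.1 and 51.2 CPM, and KD 62.2, 68.0 and 72.6 CPM. Here the KD rise over WT was 0.89 ± 0.15 (1.85-fold, edgeR adjusted p = 0.00238), and it passed in all 6 fits with a library left out (adjusted p at most 0.0191). SCR over WT with LPS was 0.58 ± 0.16 (edgeR adjusted p = 0.139). These groups did not overlap, and DESeq2 gave an adjusted p of 0.0358. With a library left out, 0 of 6 fits passed (edgeR adjusted p 0.125 to 0.566). KD and SCR were not separated, with differences of 0.19 (95% interval -0.13 to 0.50, edgeR adjusted p = 0.666) unstimulated and 0.31 (-0.01 to 0.62, edgeR adjusted p = 0.442) with LPS.

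S100A11, the annexin A1 partner, was highest in KD cells and was the member nearest to a difference between the 2 siRNAs. Without stimulation, WT held 173, 222 and 170 CPM, SCR 225, 204 and 235 CPM, and KD 270, 316 and 357 CPM. The KD libraries lay above all 6 control libraries, while SCR and WT overlapped. KD rose against WT by 0.74 ± 0.12 (log2 ± SE, 1.67-fold; edgeR adjusted p = 4.03e-04), and this held in all 6 fits with a library left out (adjusted p at most 0.00502). KD against SCR was 0.51 ± 0.12 (95% interval 0.26 to 0.75) and missed the threshold with an edgeR adjusted p of 0.0802. It passed with DESeq2 (adjusted p = 0.00622), without the low-count filter (edgeR adjusted p = 0.00165) and without KD replicate 1 (edgeR adjusted p = 0.037), and over all alternatives its adjusted p ran from 0.00165 to 0.226.

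With LPS, the WT libraries held 183, 180 and 196 CPM of S100A11, the SCR libraries 211, 166 and 195 CPM, and the KD libraries 259, 233 and 256 CPM, so KD again lay above every control library. The rise over WT was 0.42 ± 0.12 (log2 ± SE; edgeR adjusted p = 0.0255), and leaving out any 1 of the 6 libraries moved the adjusted p to between 0.0565 and 0.0856. KD against SCR was 0.39 ± 0.12 (95% interval 0.14 to 0.63, edgeR adjusted p = 0.217). SCR and WT with LPS differed by 0.03 (95% interval -0.21 to 0.28, edgeR adjusted p = 0.929). The share of counts from mitochondrial genes, one measure of RNA or cell state, was 3.19 to 3.37% in unstimulated WT, 3.28 to 3.47% in SCR and 3.87 to 4.86% in KD libraries; its part in the differences of S100A4, S100A10 and S100A11 was not tested. With LPS these shares overlapped, at 3.82 to 4.45%, 3.72 to 5.20% and 4.28 to 5.14%.

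As a set, the members gave no call between the 2 siRNAs. In KD against SCR unstimulated, 0 of the 6 members other than S100A4 passed in edgeR, where 0.066% of all genes tested did; 1 (S100A11) had an unadjusted p under 0.05, against 12.6% of all genes, and DESeq2 called 1. In KD against SCR with LPS, 0 of 7 passed by edgeR or by DESeq2, with 0% of all genes by edgeR; 1 (S100A11) had an unadjusted p under 0.05, against 11.8% of all genes. All 7 differences were positive there, with a median of 0.31 beside 0.02 over all genes. Those of S100A4 (0.03) and S100A13 (0.02) turned negative with a library left out, to -0.040 and -0.050. The 7 values rest on the same libraries and are not replicates of each other. In KD against WT unstimulated, 2 of the 6 members other than S100A4 passed (S100A10 and S100A11, both higher) where 11.7% of all genes passed. With LPS, 3 of 7 passed (S100A10 and S100A11 higher, S100A4 lower) where 10.8% did. SCR against WT gave 0 of 7 with LPS in edgeR (0.114% of all genes), with 3 of 7 at an unadjusted p under 0.05 (13.7% of all genes) and 2 called by DESeq2. Unstimulated, SCR against WT had led to the choice of the family, so no count of members called is set beside all genes. The comparisons with WT share their WT libraries. Groups without overlap were found for 1 of 6 members, S100A4 apart, in KD against SCR unstimulated (15.1% of all genes) and 2 of 7 with LPS (21.5%), for 4 in SCR against WT with LPS (22.8%), for 5 in KD against WT with LPS (35%) and, S100A4 apart, for 3 of 6 in KD against WT unstimulated (24.3%).

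**Figure D2:**
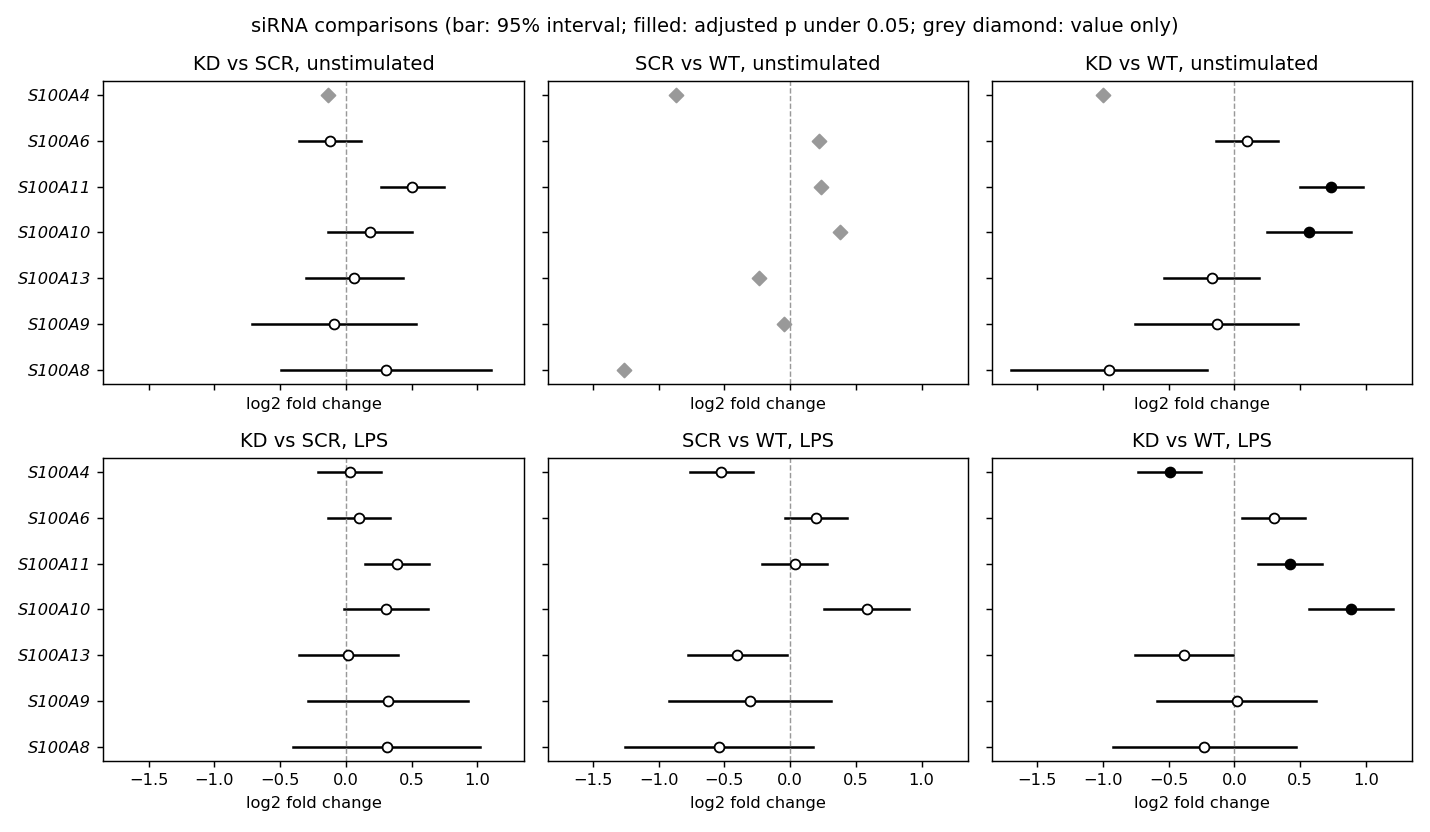
Log2 fold changes (horizontal axes) of the 7 tested S100 genes in the 6 comparisons between siRNA conditions, unstimulated above and LPS below, with 95% intervals; filled points have an edgeR adjusted p under 0.05, and grey diamonds are values given without a test. Against WT, S100A10 and S100A11 lie to the right in KD cells in both rows and S100A4 to the left, while KD against SCR holds no filled point.

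S100A6, S100A9 and S100A13 passed in none of the 9 comparisons between groups. S100A6, close neighbour of S100A4 on the chromosome, stayed between group means of 550 CPM (WT with LPS) and 717 CPM (unstimulated SCR). Its largest difference was KD against WT with LPS, 0.30 ± 0.11 (log2 ± SE; edgeR adjusted p = 0.0981), where the KD libraries at 661, 661 and 704 CPM lay above WT at 621, 568 and 459 CPM. S100A13 with LPS was at 11.2, 9.36 and 12.2 CPM in WT, above SCR at 7.94, 7.51 and 9.28 CPM and KD at 8.65, 8.10 and 8.38 CPM. Its differences from WT, -0.40 ± 0.18 for SCR (edgeR adjusted p = 0.336) and -0.38 ± 0.18 for KD (edgeR adjusted p = 0.179), did not pass.

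Setting S100A4 against S100A6 within each library removes the library total from the comparison. The S100A4 count per S100A6 count was 1.48, 1.83 and 1.90 in unstimulated WT and 1.35, 1.14 and 1.70 in WT with LPS. It was 0.74 to 0.95 and 0.70 to 0.95 in SCR, and 0.58 to 0.97 and 0.77 to 0.84 in KD, unstimulated and with LPS. WT libraries were thus the ones with more S100A4 than S100A6 counts, in medium and in LPS. The ratio uses the S100A4 values that chose the family and carries no test.

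**Figure D3:**
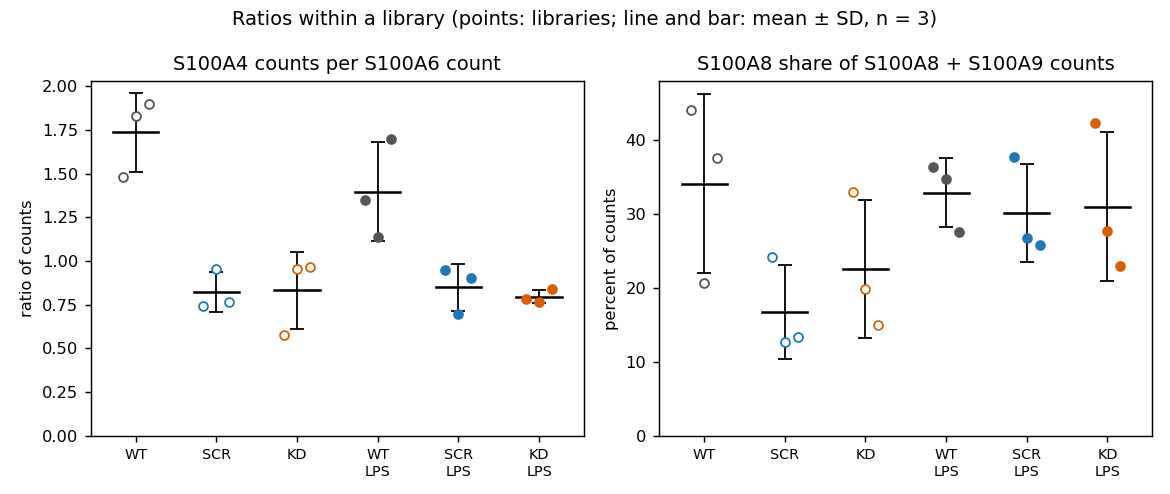
Left, S100A4 counts per S100A6 count, and right, S100A8 as a percentage of S100A8 plus S100A9 counts (vertical axes, linear from 0), by group; points are libraries and the line and bar the mean ± SD of 3. The 6 WT libraries lie above 1 in the left panel and the 12 libraries with an siRNA below 1, whereas the S100A8 share overlaps between groups.

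With LPS, the bacterial lipopolysaccharide that signals through TLR4, the alarmin gene S100A8 rose in SCR and in KD cells and S100A12 became detectable, while S100A9 did not pass the test. S100A8 in SCR went from 1.69, 0.73 and 0.85 CPM to 2.90, 2.78 and 2.27 CPM, and in KD from 1.88, 1.32 and 1.01 CPM to 3.32, 3.36 and 3.12 CPM. In both conditions the LPS libraries lay above the unstimulated ones. The rise was 1.20 ± 0.37 (log2 ± SE, 2.30-fold; edgeR adjusted p = 0.0263) in SCR and 1.20 ± 0.36 (edgeR adjusted p = 0.0314) in KD. Both calls were near the threshold: with a library left out, 2 of 6 fits kept the call in SCR (adjusted p 0.00953 to 0.0966) and 1 of 6 in KD (0.0146 to 0.134). In WT, S100A8 was at 3.50, 2.00 and 2.67 CPM in medium and 3.21, 5.01 and 3.23 CPM in LPS, groups that overlap, and differed by 0.48 ± 0.34 (log2 ± SE; edgeR adjusted p = 0.397).

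The difference between these responses was not detectable at this depth. The S100A8 response in KD exceeded that in WT by 0.73 (95% interval -0.29 to 1.75, edgeR adjusted p = 0.495), and that in SCR exceeded WT by 0.72 (-0.31 to 1.76, edgeR adjusted p = 0.639). The starting levels were not alike: before LPS, S100A8 had a log2 fold change of -1.26 in SCR against WT, given without a test, and KD stood at -0.95 ± 0.36 against WT (log2 ± SE; edgeR adjusted p = 0.0871). With LPS, KD and WT differed by -0.23 (95% interval -0.93 to 0.47, edgeR adjusted p = 0.720). Counts behind these values were low, 8 to 38 in the unstimulated siRNA libraries and 23 to 60 in the LPS libraries.

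S100A9, the calprotectin partner, had group means of 4.98 to 5.54 CPM in medium and 6.32 to 7.94 CPM in LPS. Its LPS responses were 0.53 ± 0.29 in WT (log2 ± SE; edgeR adjusted p = 0.261), 0.28 ± 0.30 in SCR (edgeR adjusted p = 0.581) and 0.68 ± 0.29 in KD (edgeR adjusted p = 0.144), none past the threshold. S100A8 made up 20.6 to 44% of the summed S100A8 and S100A9 counts in unstimulated WT, 12.7 to 24.1% in SCR and 14.9 to 32.9% in KD. With LPS the shares were 27.5 to 36.3%, 25.8 to 37.7% and 22.9 to 42.2%. The exact binomial 95% interval for the lowest, 8 of 63 counts in SCR replicate 2, ran from 5.65 to 23.5% and covers counting error only.

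S100A12 was found with LPS and not without it. It had 0 counts in all 9 unstimulated libraries, 134834627 counts in total, and 27 counts in 7 of 9 LPS libraries. In the LPS libraries there were 8, 6 and 1 counts in KD, 1, 4 and 1 in SCR, and 0, 6 and 0 in WT. Against a floor of 3 counts over the pooled unstimulated libraries, the pooled LPS counts were 10.8-fold higher per total count. That value leaves out the counting error of the 27 counts and the spread between libraries. An exact permutation test of the mean CPM over libraries, with labels exchanged within each siRNA condition, gave a two-sided p = 0.0025 (8000 arrangements). Libraries at 0 are tied, and this is the smallest p that the test could give for these values. In the 2 count models that included the gene, edgeR without the filter and DESeq2, no comparison of S100A12 within a single condition passed. Even the highest library held 0.70 CPM.

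S100A4 with LPS went in WT from 935, 1163 and 1104 CPM to 839, 650 and 780 CPM, a log2 fold change of -0.50, given without a test because the unstimulated libraries chose the gene. In SCR the value was -0.15, without a test for the same reason, and in KD it was 0.01 (95% interval -0.23 to 0.25, edgeR adjusted p = 0.972, with a sign that turned under other size factors). S100A11 in KD went from 270, 316 and 357 CPM to 259, 233 and 256 CPM, groups that do not overlap, a log2 difference of -0.34 ± 0.12 (SE; edgeR adjusted p = 0.067; DESeq2 adjusted p = 0.0413). S100A13 responses were log2 values of -0.14 (WT), -0.30 (SCR) and -0.35 (KD), none past the threshold (edgeR adjusted p 0.222 to 0.679). S100A6 responses were -0.17, -0.19 and 0.04, and those of S100A10 -0.03, 0.17 and 0.29, in WT, SCR and KD, and none passed.

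Apart from S100A4, the LPS responses called 0 of 6 members in WT, where 14.3% of all genes passed, with 0 at an unadjusted p under 0.05 and 0 by DESeq2. They called 1 of 6 in SCR (S100A8, beside 17.2% of all genes) and 1 of 7 in KD (S100A8, beside 11.5%). Groups in medium and LPS did not overlap for 0 of 6 members other than S100A4 in WT (32.5% of all genes), 2 of 6 in SCR (37.3%) and 3 of 7 in KD (25.4%). In the 3 comparisons of LPS responses between conditions edgeR called 0 of the 6 members other than S100A4, beside 0% (KD against SCR), 0.234% (SCR against WT) and 0.36% (KD against WT) of all genes. None of the 6 had an unadjusted p under 0.05 (7.64%, 9.96% and 15.5% of all genes did), and DESeq2 called 0 in each, giving no adjusted p for S100A8 and S100A9 in KD against WT.

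**Figure D4:**
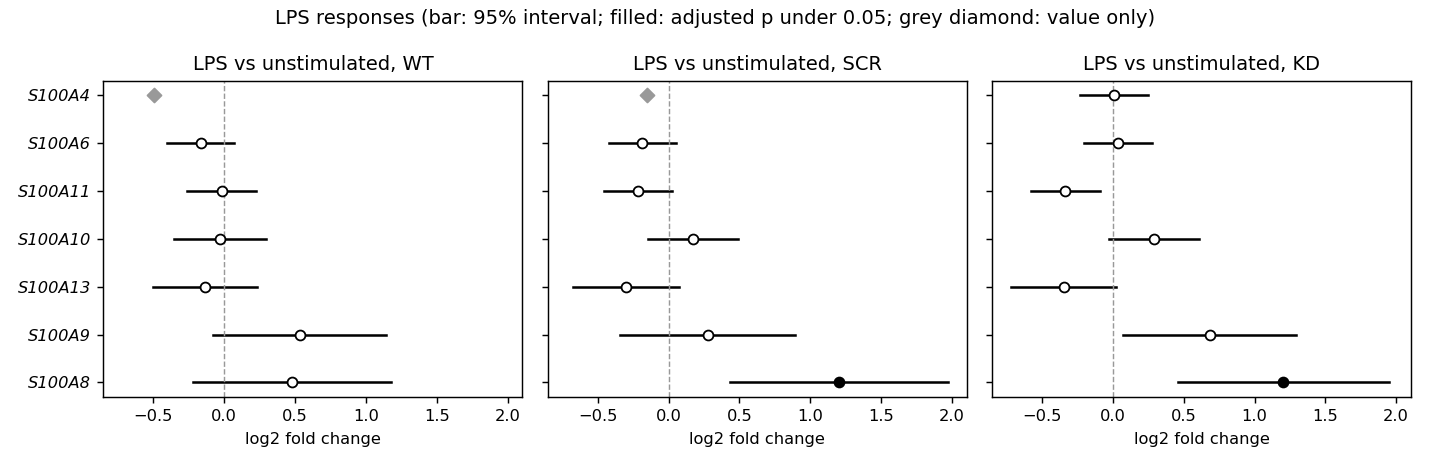
Log2 fold changes (horizontal axes) of the 7 tested S100 genes with LPS against medium in WT, SCR and KD cells, with 95% intervals; filled points have an edgeR adjusted p under 0.05, and the grey diamonds are S100A4 values given without a test. S100A8 is filled in SCR and KD at about 1.20, and its interval in WT includes 0.

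Of 13 further genes, namely other S100 genes and S100PBP, 9 stayed under 1 CPM in every library and 4 of these had no count. S100P, S100PBP, S100A2 and S100A3 were the ones tested. S100P, a member of the family that lies outside the cluster above, was abundant by counted tags. Unstimulated WT cells held 158 ± 12.8 CPM, SCR cells 225 ± 23.9 CPM and KD cells 219 ± 11.4 CPM (mean ± SD, n = 3), and 158 ± 9.66, 170 ± 6.59 and 151 ± 5.35 CPM with LPS. KD exceeded WT without stimulation by 0.47 ± 0.09 (log2 ± SE; edgeR adjusted p = 0.00204). With LPS S100P fell by 0.40 in SCR (edgeR adjusted p = 0.00384) and by 0.53 in KD (edgeR adjusted p = 4.57e-04) on the log2 scale, and stood at -0.0004 in WT (edgeR adjusted p = 0.999). The KD and WT responses differed by -0.53 ± 0.13 (edgeR adjusted p = 0.0843). S100PBP, which binds S100P, fell with LPS in all 3 conditions, by 0.62 in WT (edgeR adjusted p = 0.00275), 0.51 in SCR (edgeR adjusted p = 0.0115) and 0.42 in KD (edgeR adjusted p = 0.0453). S100A3, whose gene span overlaps that of S100A4, had few counts. It had none in the 3 unstimulated KD libraries and 0.35 to 1.14 CPM with LPS in KD. Its means in medium and LPS were 0.34 and 0.97 CPM in WT, and 0.29 and 0.34 CPM in SCR. The gene was named after its values were seen, so these are given without a test.

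Among 25 partners and receptors of S100 proteins, all tested, KD against SCR gave 0 calls in medium and 0 with LPS by edgeR, with 4 and 3 at an unadjusted p under 0.05 (12.6% and 11.8% of all genes). KD against WT gave 4 higher and 1 lower unstimulated, beside 11.7% of all genes called. PLAUR, the urokinase receptor, rose by 0.69 ± 0.15 (log2 ± SE; edgeR adjusted p = 0.00394), ANXA2, the S100A10 partner, by 0.51 ± 0.11 (edgeR adjusted p = 0.00454) and ANXA5, a phosphatidylserine-binding annexin, by 0.70 ± 0.19 (edgeR adjusted p = 0.0189). TLR4 was lower, at -0.96 ± 0.22 (edgeR adjusted p = 0.00697). The median over the list was 0.20 beside -0.01 over all genes. With LPS, 4 were higher and 0 lower, beside 10.8% of all genes called: ANXA5 (1.02, edgeR adjusted p = 0.00324), ANXA1 (0.97, edgeR adjusted p = 0.00732), BSG, a receptor of S100A9 (0.48, edgeR adjusted p = 0.00823), and AHNAK, which binds the S100A10 and annexin A2 complex (0.51, edgeR adjusted p = 0.0258). ANXA2 with LPS differed between KD and WT by 0.09 ± 0.11 (edgeR adjusted p = 0.648), where S100A10 had risen. SCR against WT unstimulated gave 3 higher and 1 lower (3.23% of all genes called) and, with LPS, 0 and 0 by edgeR (0.114%), with 5 at an unadjusted p under 0.05 (13.7% of all genes).

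LPS itself moved several of these partners. In WT, 5 rose and 3 fell (14.3% of all genes called), among them CYBB, the catalytic subunit of the phagocyte oxidase to which calprotectin delivers arachidonic acid (1.49 ± 0.17, edgeR adjusted p = 1.62e-06), ALCAM (0.78, edgeR adjusted p = 1.05e-05), PLAUR (0.97, edgeR adjusted p = 6.2e-05) and ANXA2 (0.66, edgeR adjusted p = 1.76e-04). In SCR 4 rose and 2 fell (17.2% of all genes called), and in KD 4 rose and 2 fell (11.5%). CD14, the LPS co-receptor, fell in all 3, by 0.74 in WT (edgeR adjusted p = 0.0224), 1.53 in SCR (edgeR adjusted p = 2.31e-05) and 1.07 in KD (edgeR adjusted p = 0.00138) on the log2 scale. No gene of the list passed in the comparisons of LPS responses between conditions by edgeR, with 2, 2 and 5 at an unadjusted p under 0.05 for KD against SCR, SCR against WT and KD against WT (7.64%, 9.96% and 15.5% of all genes).

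Of 23 myeloid regulators and granule genes, 20 were tested; FCN1 was at 0 in every library and CEBPA had at most 0.15 CPM. KD against SCR gave 0 calls in either state by edgeR (0.066% and 0% of all genes), with 4 and 8 at an unadjusted p under 0.05 (12.6% and 11.8% of all genes). Against WT unstimulated, KD had 3 higher and 2 lower, beside 11.7% of all genes called. The granule proteases ELANE (0.67 ± 0.12, edgeR adjusted p = 9.5e-04) and PRTN3 (1.06 ± 0.21, edgeR adjusted p = 0.00283) rose. So did the granule protein AZU1 (1.12 ± 0.28, edgeR adjusted p = 0.013). GFI1, a transcriptional repressor, fell by 0.68 (edgeR adjusted p = 3.5e-05), and MYB was the other lower gene. With LPS 5 were higher and 1 lower (10.8% of all genes called), among them MYC (1.30 ± 0.24, edgeR adjusted p = 0.00324), with GFI1 (-0.31, edgeR adjusted p = 0.0224), ELANE (0.42, edgeR adjusted p = 0.0242) and IRF8 (1.32, edgeR adjusted p = 0.0314). The LPS responses gave 1 higher and 3 lower in WT, 3 and 4 in SCR and 1 and 3 in KD, beside 14.3%, 17.2% and 11.5% of all genes. GFI1, MYB and CEBPB fell in all 3, CEBPB by 0.64 in WT (edgeR adjusted p = 0.00134), 0.63 in SCR (edgeR adjusted p = 0.00174) and 0.70 in KD (edgeR adjusted p = 9.88e-04). CEBPD, a C/EBP factor, rose in SCR by 0.76 (edgeR adjusted p = 0.0194) and in KD by 1.06 (edgeR adjusted p = 0.00278), and its response in WT was 0.45 ± 0.22 (log2 ± SE; edgeR adjusted p = 0.194). The CEBPD responses did not differ past the threshold between conditions (edgeR adjusted p 0.353 to 0.843). SCR against WT unstimulated gave 0 higher and 1 lower (3.23% of all genes called), and 0 of either with LPS by edgeR (0.114%), with 4 at an unadjusted p under 0.05 (13.7%).

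Over the 18 libraries the members did not move as one. S100A4 ran against S100A10 (Pearson r of log2 CPM -0.73) and with S100A13 (0.69), and S100A8 and S100A9 correlated weakly (0.37). The libraries share groups and normalization, so these are descriptions. Among genes with a mean of at least 10 CPM, those most like S100A4 over the 18 libraries were GDE1 (r 0.96), BRK1 (0.95) and HDAC1 (0.93). Those most like S100A10 were LDHA (0.93), LGALS3 (0.87) and EIF3H (0.85), and those most like S100A8 were GAPT (0.88), ZFYVE16 (0.87) and CEMIP2 (0.86).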

How the data were processed

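THP-1 RNA from 18 libraries (6 groups of 3) was made into 3′ tag libraries and sequenced by the authors, who removed low-quality, adaptor and poly-A reads, aligned with HISAT to GRCh37 and counted with featureCounts over the last 500 bases of each Ensembl gene. The deposited table holds raw whole-number counts per gene. Whether counting used the strand is not given in the sources used here, so reads of antisense genes may be shared. Groups came from the sample titles.

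Counts were tested with edgeR 4.0.16 (R 4.3.3): TMM normalization, filterByExpr by group (16678 of 63677 genes kept), the quasi-likelihood F test on all 18 libraries with 1 mean per group, 12 contrasts, and Benjamini-Hochberg adjustment over all genes tested with a threshold of 0.05. CPM used TMM-scaled totals over the genes tested. Standard errors and 95% intervals came from the fit's weights and moderated dispersion. Totals of 8206023 to 22344279 counts leave S100A8 with 8 to 62 counts per library. The exact binomial interval and the floor of 3 counts cover counting error only. The tests were checked on simulated counts.

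Alternatives were DESeq2 1.42.0 (all 18 libraries), RLE size factors, no low-count filter, the compared groups alone, a replicate block, and leaving out each library. The replicate numbers are nested in stimulation. Deviations of same-numbered libraries correlated above 0.1 in every pair for SCR and WT with LPS (0.163 to 0.261). No other comparison did so, and the numbers were taken as a sign of pairing for those libraries only. The main fit held no block, so its results for SCR against WT with LPS leave out that pairing. The block, run as an alternative, gave each replicate number a term over all 18 libraries. Symbols came from GENCODE on GRCh37; promoter windows are RefSeq on GRCh38.p14. The members, lists and tests were chosen with earlier results of these data known. Named genes were all members, TRAFD1, up to 4 genes per list and comparison by smallest adjusted p among those past 0.05, and the 3 genes most correlated with each of the 3 most variable members. ANXA2 with LPS, CD14, MYB, CEBPB, CEBPD, CEBPA, FCN1, CSF3R, CXCR2, ITGB2 and S100A3 were added where a member's result or marker check turned on them. They were added after their values were seen.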

Additional observations from a re-analysis of the deposited data

How the results depend on the processing

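Counts of members called depended on the settings. KD against SCR unstimulated went from 0 to 1 (S100A11) without the low-count filter, with the replicate block and with DESeq2, and to 0 to 1 with a library left out. The count for SCR against WT unstimulated holds S100A4, whose values there chose the family, and tests nothing about the members. It went from 1 to 2 with the block and with DESeq2 (1 to 2 with a library left out, without WT replicate 2 or SCR replicate 1). SCR against WT with LPS went from 0 to 2 without the filter, 1 with the block, 2 with DESeq2 and 1 with those groups alone. KD against WT with LPS, 3, ran from 1 to 2 with a library left out. The LPS response in SCR went from 1 to 0 without the filter and with its groups alone, and 0 to 1 with a library left out; that in KD went to 2 with DESeq2 and to 0 with its groups alone, and 0 to 2 with a library left out. The comparison of KD and WT responses went from 0 to 1 (S100A4, a gene chosen on the unstimulated WT and SCR libraries) without the filter and with the block. The cause was not tested. The replicate block changed no other count.

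Signs turned for small, uncalled values. With a library left out, the log2 fold change ran from -0.040 to 0.074 for S100A4 in KD against SCR with LPS, from -0.047 to 0.13 for S100A11 in SCR against WT with LPS, and from -0.34 to 0.019 for S100A8 in KD against WT with LPS. For S100A13 in KD against SCR with LPS it ran from -0.050 to 0.12. For LPS against medium it ran from -0.24 to 0.052 for S100A13 in WT, from -0.15 to 0.13 for S100A10 in WT, from -0.037 to 0.31 for S100A10 in SCR, from -0.086 to 0.12 for S100A11 in WT, from -0.12 to 0.10 for S100A4 in KD and from -0.029 to 0.15 for S100A6 in KD. S100A11 with LPS in WT also turned to 0.0006 with RLE size factors, 0 with DESeq2 and 0.0010 with its groups alone, and S100A4 with LPS in KD to -0.0117 with RLE and -0.0118 with DESeq2. Without a low-count filter S100A8 with LPS missed the threshold in SCR (adjusted p = 0.0555) and KD (0.0581) by edgeR. S100A8, at 8 to 62 counts a library, and S100A12, at 0 to 8, rest on few counts.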
